A study of Mus musculus with 20 samples.

Results

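The Myc and Max network was followed in Hepa1-6 cells through 10 genes: the MYC family genes Myc and Mycn, their dimerisation partner Max, the antagonists Mxd1, Mxd3, Mxd4, Mxi1 and Mnt, and the related genes Mga and Mlx. All probe sets that the platform annotation assigns to 1 of these symbols alone were taken. That gave 26 of the 34945 probe sets with exactly 1 gene, on an array of 45037, and 10 of 18194 genes. Hepa1-6 is an established mouse hepatoma line of the C57L strain, so all values come from 1 transformed line. Every culture had been in medium without growth factors for 4 h at the start. Treated cells then received 1 ng/ml TGFβ1 and untreated cells, the controls labelled basal, no cytokine, and RNA was taken at 0, 1, 3, 6 and 10 h. The labels state that treated and untreated cells at 0 h are equivalent. Each of the 10 groups held 2 biological duplicates, which gave 20 Affymetrix arrays.

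MYC proteins act only as dimers with MAX. The dimer binds the E-box, CACGTG, and recruits histone acetyltransferase complexes to genes for ribosome production, nucleotide synthesis and growth. MXD proteins and MNT compete for MAX, bind the same sites and recruit SIN3 and histone deacetylases. MGA pairs with MAX and carries a T-box DNA-binding domain in addition, and MLX is a MAX-like protein that pairs with the glucose-sensing factors MLXIP and MLXIPL and with some MXD proteins and MNT. In epithelial cells, loss of MYC mRNA is a known early part of growth arrest by TGFβ, brought about by SMAD proteins together with E2F4 or E2F5. MYC is also a well-known driver of liver tumours.

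Promoter sequences were read from RefSeq (assembly GRCm38.p6) in windows from 250 bases before to 50 bases after the start of a gene. The table held 9 of the 10 members and had no entry for Myc. A CACGTG E-box, the network's own binding site and the same on both strands, lay in the windows of 4 of these 9 members, Max, Mxd4, Mnt and Mlx. It lay in a window of 8.09% of the 27025 genes with a promoter, and in 7.15% of the 32851 promoters. These 4 members are shown because they are also the 4 called higher in untreated cells at 3 h (described below under the untreated course). That coincidence was noticed after the values were seen and was not tested. Over all genes 4.95% were called higher in that comparison, and the share of these with an E-box was not counted. Each of the 4 calls was lost under 1 or more alternative settings. At 6 h Mxi1, which had no E-box in its windows, was called higher at the gene level and Max was not. At 10 h neither Max nor Mlx was called at the gene level. Each line gives 30 bases 5′ to 3′ on the strand of the gene, with the E-box in capitals.
Max, chr12:76962234-76962263, minus strand: ggtgagcccggtCACGTGttagggggccga
Mxd4, chr5:34187912-34187941, minus strand: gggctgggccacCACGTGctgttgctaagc
Mnt, chr11:74830789-74830818, plus strand: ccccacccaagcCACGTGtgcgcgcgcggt
Mlx, chr11:101087238-101087267, plus strand: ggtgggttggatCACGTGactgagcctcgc

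The 250 bases upstream of Mycn are shown because a Mycn probe set gave the widest change of any member. E2F factors, which control cell cycle genes, are known regulators of the MYCN promoter. The letters TTTGGCGC, TTTCGCGC, TTTGCCGC and TTTCCCGC were searched on both strands. They matched in 1 of 9 members, Mycn, and in 2.6% of all genes with a promoter (2.26% of all promoters). The capitals mark 3 matches, which begin at −183, −179 and −168 relative to the start. The one in the middle is on the opposite strand (GCGCGAAA) and overlaps its neighbour.
Mycn, chr12:12941837-12942086, minus strand: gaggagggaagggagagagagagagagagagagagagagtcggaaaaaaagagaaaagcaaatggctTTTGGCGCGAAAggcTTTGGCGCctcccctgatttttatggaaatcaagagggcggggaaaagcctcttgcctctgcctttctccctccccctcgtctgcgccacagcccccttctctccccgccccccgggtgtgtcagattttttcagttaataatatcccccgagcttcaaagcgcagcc
The palindrome GTCTAGAC, a high-affinity SMAD site, lay in 0 of the 9 members and in 0.248% of all genes with a promoter (0.213% of all promoters). These are matches of letters within short windows, and no binding was measured.

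Values are RMA log2 expression values, so a difference of 1 is a 2-fold change, and levels of different probe sets are not compared. Duplicates correlated at 0.9958 to 0.9971 over all probe sets, array medians lay between 5.15 and 5.21, and the median standard error (SE) of a treated-minus-untreated difference was 0.13, a precision set by the number of arrays. P-values are from limma with Benjamini-Hochberg adjustment over all 18194 genes within a comparison, or over 34945 probe sets where a probe set is named, and a gene is called where the adjusted p is under 0.05. They measure the spread between duplicate cultures of 1 line. In bulk RNA, fewer cells that carry a transcript and less of it per cell cannot be told apart. The cells carried high Alb (12.01) and Afp (12.8), which mark hepatocytes and hepatoma. Of 8 measured hepatocyte markers, 6 lay above the array medians, among them Fgb (7.76), Hnf4a (6.57), Apoa1 (6.32) and Ttr (5.65). Apob (5.16) and Ahsg (4.45) were near or below the array medians. The bile duct markers Krt7 (10.2), Epcam (9.94) and Sox9 (8.43) were also high, with 4 of 5 of that list above the array medians and Cftr at 2.52. Of 8 stellate cell or fibroblast markers 4 lay above them, from Col3a1 at 3.50 to the matrix gene Dcn at 13.4. Under TGFβ1, 1, 3, 3 and 3 of 8 hepatocyte markers were called at 1, 3, 6 and 10 h. The counts were 1, 3, 3 and 2 of 5 bile duct markers and 0, 1, 2 and 1 of 8 stellate cell markers. Over all genes 2.24%, 15.3%, 15.7% and 9.13% were called at these times. The part of these markers in the results below was not tested. The mean level of the hepatocyte list ran from 7.47 to 7.85 over single untreated arrays and from 7.43 to 7.62 over single treated arrays. That of the bile duct list ran from 7.35 to 7.56 and from 7.43 to 7.86. Of 7 macrophage markers, 3 lay above the array medians, from Ptprc at 3.31 to Csf1r at 6.63, as did 1 of 6 endothelial markers, from Tek at 3.56 to Kdr at 5.36. None of either list was called at 1, 3, 6 or 10 h.

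At 0 h, 0 of 10 members differed between treated and untreated cells, as did 0% of all genes (limma). Without adjustment, 0 members had p under 0.05 at 0 h. At 1 h 1 member was lower, Myc, beside 2.24% of all genes called in either direction, 1.91% higher and 0.324% lower. At 3 h Mxi1 was higher and Mnt and Mlx were lower, 3 members beside 15.3% of all genes (6.73% higher, 8.55% lower). At 6 h Myc, Mxd4 and Mnt were higher and Mlx was lower, 4 members beside 15.7% (7.77% and 7.96%). At 10 h Myc and Mnt were higher and Mlx was lower, 3 members beside 9.13% (5.07% and 4.06%). With 10 members, these counts are small. Treated and untreated arrays did not overlap for 3, 8, 6 and 5 members at 1, 3, 6 and 10 h. Over all genes this held for 34.8%, 51.2%, 51.4% and 50.4%, and at 0 h for 32%. A lack of overlap is thus common and is given below as description only. Over the members the median difference was 0.04 at 1 h, −0.08 at 3 h, 0.10 at 6 h and 0.09 at 10 h, against −0.01, −0.02, −0.03 and 0.00 over all genes.

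**Figure D1:**
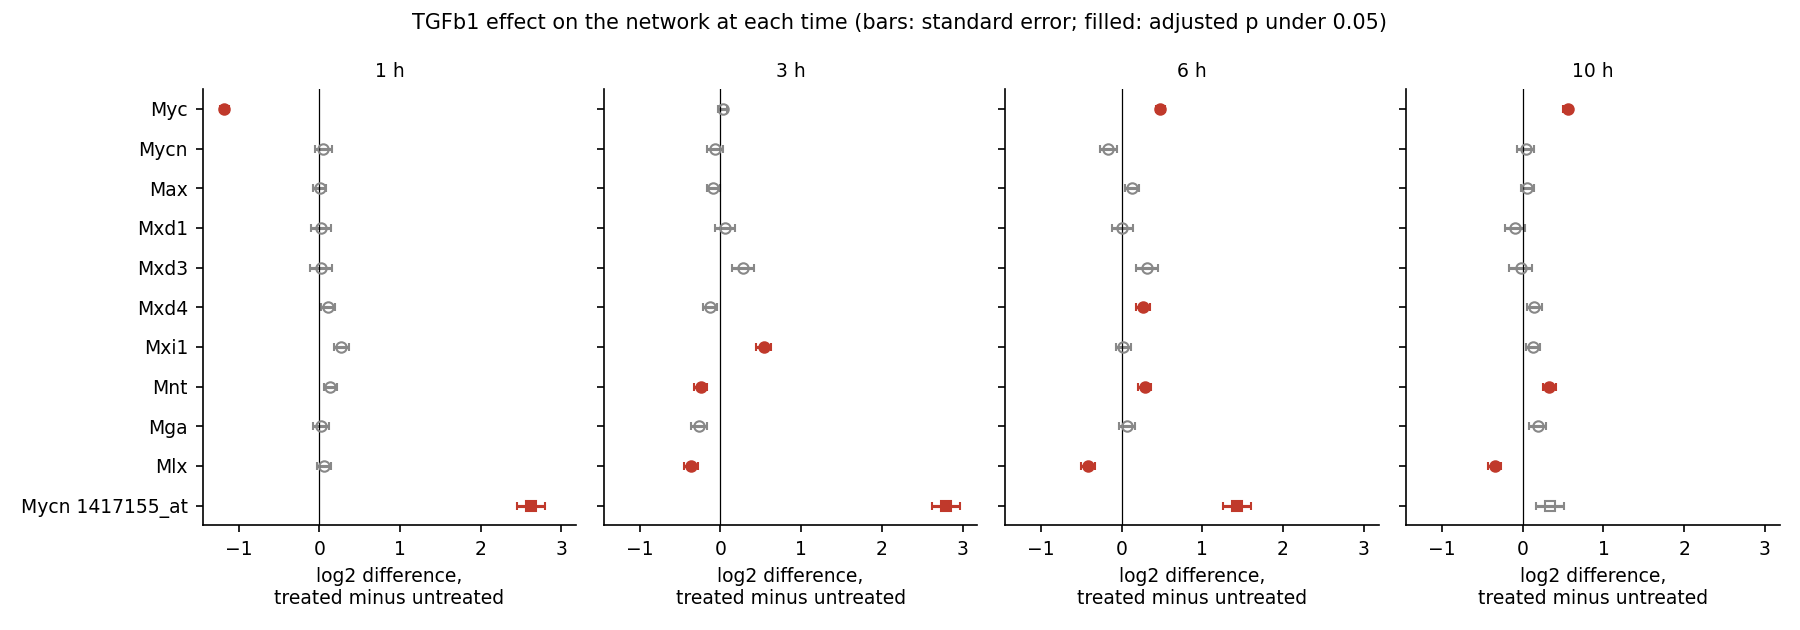
Treated-minus-untreated log2 difference of each member at 1, 3, 6 and 10 h, with bars for the standard error and filled symbols for an adjusted p under 0.05. Circles are the probe set that represents a gene and the square is the Mycn probe set 1417155_at. Myc lies at −1.18 at 1 h and at 0.56 at 10 h, and Mycn 1417155_at lies at 2.62, 2.80 and 1.43 at 1, 3 and 6 h.

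Myc mRNA fell within 1 h of TGFβ1, was at the untreated level at 3 h and rose above it at 6 and 10 h. Its single probe set, 1424942_a_at, read 10.11 and 10.07 in untreated and 8.93 and 8.90 in treated arrays at 1 h. Neither treated array came within 1 log2 unit of either untreated array. The difference was −1.18 ± 0.06 (SE), a 2.26-fold lower level (adjusted p = 3.31e-12), and the fourth largest fall of all genes at that time. At 3 h the untreated arrays read 10.18 and 10.15 and the treated arrays 10.11 and 10.27, so the groups overlapped. The difference was 0.03, with a 95% confidence interval of −0.09 to 0.14 (adjusted p = 0.854). At 6 h untreated arrays read 9.98 and 10.04 and treated arrays 10.47 and 10.51, and at 10 h 9.93 and 9.99 against 10.55 and 10.49. Both treated arrays lay above both untreated arrays at each of these times. Myc was 1.40-fold higher at 6 h (0.48 ± 0.06, adjusted p = 2.04e-06) and 1.47-fold higher at 10 h (0.56 ± 0.06, adjusted p = 6.88e-07).

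The change of the Myc effect between times was itself tested. Of the 10 members, 2 changed from 1 to 3 h, beside 6.41% of all genes, 3 from 3 to 6 h, beside 4.55%, and 0 from 6 to 10 h, beside 2.44%. Without adjustment, 0 members had p under 0.05 for that last change (limma). The Myc effect rose by 1.20 ± 0.08 (SE) from 1 to 3 h (adjusted p = 2.57e-09) and by 0.45 ± 0.08 from 3 to 6 h (adjusted p = 0.00157). From 6 to 10 h it moved by 0.08 (adjusted p = 0.822). Neighbouring changes share the arrays of the time between them. Untreated cells gave a level of 10.04 and 10.13 at 0 h, and at no later time was Myc called against it. At 10 h they were at −0.12 (95% confidence interval −0.24 to −0.01, adjusted p = 0.124). Treated cells read 9.99 and 10.09 at 0 h. Set against the 4 arrays of 0 h, treated Myc stood at −1.15 at 1 h, 0.13 at 3 h, 0.43 at 6 h and 0.45 at 10 h. The calls at 1, 6 and 10 h and both changes held under every alternative setting and without each array in turn.

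**Figure D2:**
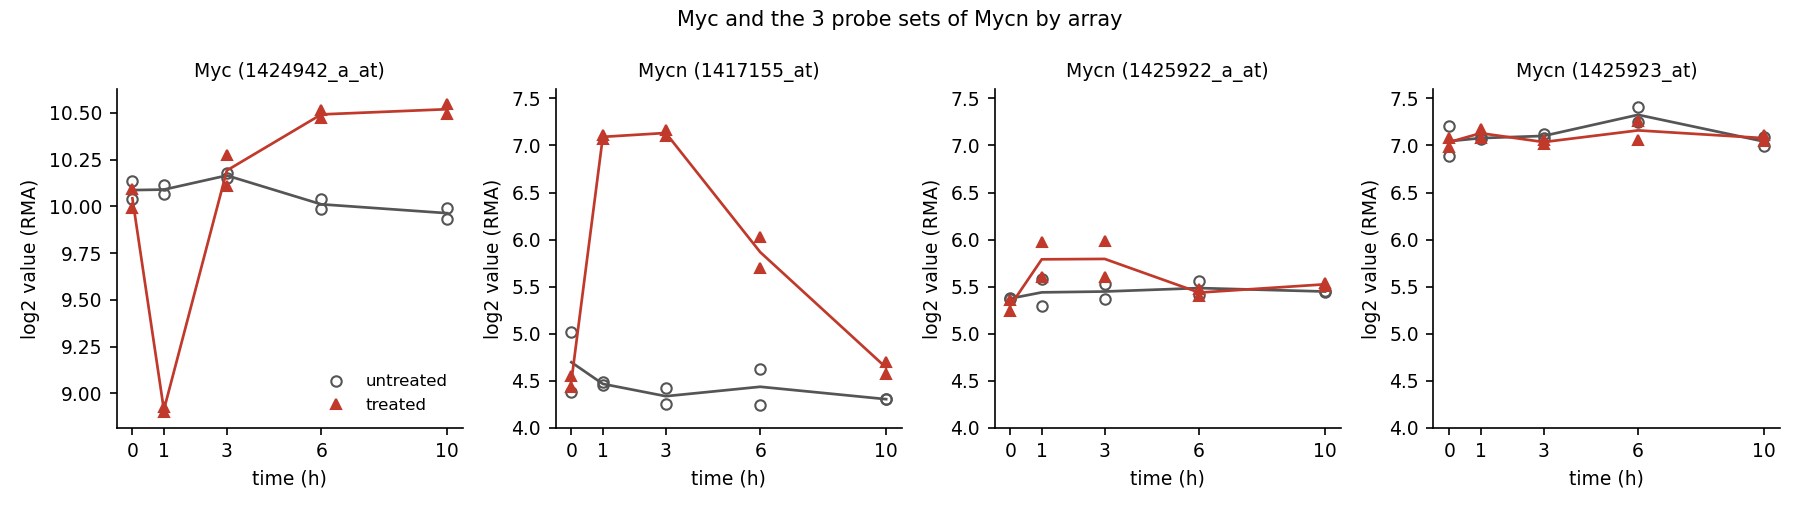
RMA log2 value of Myc and of the 3 Mycn probe sets on each array against time in h, with lines through the group means of 2 arrays; circles are untreated and triangles treated arrays. Myc dips to 8.93 and 8.90 at 1 h and ends at 10.55 and 10.49, Mycn 1417155_at climbs to 7.16 and 7.10 at 3 h, and Mycn 1425923_at stays between 6.89 and 7.41 on all arrays. The 3 Mycn panels share 1 axis range.

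Mycn encodes N-MYC, the MYC protein best known from neuroblastoma and from embryonic tissues. Its 3 probe sets did not agree. Probe set 1417155_at read 4.45 and 4.48 in untreated and 7.11 and 7.07 in treated arrays at 1 h, and 4.25 and 4.42 against 7.16 and 7.10 at 3 h. Treated and untreated arrays lay more than 2 log2 units apart at these times. At 6 h the treated arrays had come down to 5.70 and 6.03, still above the untreated 4.63 and 4.24, and at 10 h to 4.70 and 4.58 against 4.31 and 4.30. The differences were 2.62 ± 0.18 (SE, adjusted p = 3.26e-09) at 1 h, 2.80 ± 0.18 (adjusted p = 5.76e-10) at 3 h and 1.43 ± 0.18 (adjusted p = 8.08e-06) at 6 h, or 6.17-fold, 6.95-fold and 2.69-fold. The difference of 0.34 at 10 h was not called (adjusted p = 0.383). These calls held under every alternative run on single probe sets. All untreated arrays of 1417155_at lay below the array medians, so these folds may be limited by the background.

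The effect on 1417155_at fell by 1.37 from 3 to 6 h (adjusted p = 0.00406), whereas its change of 0.17 from 1 to 3 h was not called (adjusted p = 0.858). A further fall of 1.10 from 6 to 10 h (adjusted p = 0.0275) was lost without treated replicate 2 at 6 h (−0.93, adjusted p = 0.165), without untreated replicate 2 at 6 h (−0.90, 0.145) and without any array of 10 h (−1.16 to −1.03, 0.0626 to 0.137). It was also lost without the variance trend (0.0696). Probe set 1425922_a_at read 5.98 and 5.60 in treated and 5.58 and 5.30 in untreated arrays at 1 h, and 5.99 and 5.60 against 5.37 and 5.53 at 3 h. Both differences were 0.35 and neither was called (adjusted p = 0.487 and 0.176). The third, 1425923_at, had the highest mean and stood for Mycn in the gene-level counts. It differed by 0.05, −0.07, −0.17 and 0.04 at 1, 3, 6 and 10 h, none called. As the mean of its probe sets, Mycn was higher at 1 h (1.01), 3 h (1.03) and 6 h (0.41, adjusted p = 0.0139), so the gene-level direction at 3 and 6 h depends on the probe set. Which probe set reads Mycn mRNA most closely was not tested. Over the 26 probe sets of the members, 2 were called at 1 h, 6 at 3 h, 5 at 6 h and 3 at 10 h, beside 1.71%, 11.3%, 11.3% and 5.83% of all probe sets.

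Max, which encodes a dimer partner of both MYC and MXD proteins, was not called between treated and untreated cells at any time. Its probe set 1423501_at read 7.77 and 7.78 in untreated and 7.77 and 7.61 in treated arrays at 3 h, and the highest treated array lay just below the lowest untreated one. The differences ran from −0.09 at 3 h to 0.13 at 6 h, with 95% confidence intervals of −0.26 to 0.08 and −0.04 to 0.30.

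Among the MXD genes, Mxi1, which encodes the antagonist also called MXD2, was higher at 3 h. Probe set 1450376_at read 8.53 and 8.40 in untreated and 9.10 and 8.90 in treated arrays. These did not overlap, as in 51.2% of all genes at 3 h. The difference was 0.53 ± 0.09 (SE), 1.45-fold (adjusted p = 2.09e-04), and it held under every alternative. The second Mxi1 probe set, 1425732_a_at, read 5.90 and 5.92 against 6.42 and 6.29 and was higher by 0.45 (adjusted p = 0.0209). That call was lost without treated replicate 1 (0.38, adjusted p = 0.165) and without untreated replicate 1 (0.44, 0.111) or 2 (0.45, 0.091). At 1 h 1450376_at read 8.56 and 8.36 against 8.75 and 8.72, higher by 0.28 but not called (adjusted p = 0.186). At 6 h the arms met, with 9.12 and 8.87 in untreated and 9.05 and 8.99 in treated arrays, and the difference was 0.02. At 10 h it was 0.13 (adjusted p = 0.524).

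The Mxi1 effect fell by 0.51 from 3 to 6 h (adjusted p = 0.0248). That call was lost without treated replicate 1 at 3 h (−0.41, adjusted p = 0.144), untreated replicate 2 at 3 h (−0.44, 0.11), either treated array at 6 h (−0.54 and −0.48, 0.0503 and 0.0928) and untreated replicate 1 at 6 h (−0.38, 0.139). Median centring (0.0513) and the fit without a variance trend (0.105) ended it too.

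Mxd4, an antagonist associated with differentiating and resting cells, was 1.20-fold higher in treated cells at 6 h. Its probe set 1434378_a_at read 8.66 and 8.61 in untreated and 8.83 and 8.98 in treated arrays. The groups did not overlap, as in 51.4% of all genes at 6 h, and the difference was 0.27 ± 0.09 (SE, adjusted p = 0.0429). The call was lost without treated replicate 2 (0.19, adjusted p = 0.324), untreated replicate 1 (0.30, 0.0924) or untreated replicate 2 (0.24, 0.203), and under 9 of 14 alternatives in all. At 3 and 10 h Mxd4 differed by −0.13 and 0.15, not called. Mxd1, which marks terminal differentiation, and Mxd3, which is tied to proliferating cells, were not called at any time. Mxd1 differed by −0.10 to 0.06 and Mxd3 by −0.03 to 0.31 between 1 and 10 h. One weak Mxd1 probe set, 1434830_at, read 5.16 and 5.16 in untreated and 4.52 and 4.82 in treated arrays at 3 h, lower by 0.49 (adjusted p = 0.0305). Without treated replicate 1 its adjusted p was 0.308, and without untreated replicate 1 or 2 it was 0.128 or 0.127. The treated values lie below the array medians, and the brighter probe set 1422002_at differed by 0.06.

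Mnt, the most widely expressed antagonist of MYC, crossed from below to above the untreated level. Probe set 1418192_at read 8.70 and 8.80 in untreated and 8.46 and 8.55 in treated arrays at 3 h. At 6 h it read 9.005 and 9.056 against 9.34 and 9.28, and at 10 h 8.91 and 8.89 against 9.26 and 9.20. The treated pair lay below both untreated arrays at 3 h and above both at 6 and 10 h. The differences were −0.24 ± 0.08 at 3 h (SE, adjusted p = 0.0449), 0.28 ± 0.08 at 6 h (0.0167) and 0.33 ± 0.08 at 10 h (0.0100). The change from 3 to 6 h, 0.53 ± 0.11, was called (adjusted p = 0.00824) and held without each array in turn, though not without the variance trend (0.0507).

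Each single-time call of Mnt rested on its arrays. At 3 h it was lost without treated replicate 1 or 2 (−0.20 and −0.29, adjusted p = 0.265 and 0.0717) and without untreated replicate 1 or 2 (−0.29 and −0.19, 0.0703 and 0.27). At 6 h it was lost without treated replicate 1 (0.25, adjusted p = 0.127), untreated replicate 1 (0.26, 0.107) or untreated replicate 2 (0.31, 0.0508). At 10 h the same arrays mattered by number, treated replicate 1 (0.30, adjusted p = 0.109) and untreated replicates 1 and 2 (0.34 and 0.32, 0.0583 and 0.0822). The dimmer Mnt probe set 1418193_at differed by 0.14, −0.11 and 0.01 at 3, 6 and 10 h and was not called. As the mean of both probe sets Mnt was not called at any of these times (−0.05, 0.09 and 0.17), nor was its change from 3 to 6 h (0.14, adjusted p = 0.718).

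Mga was not called at the gene level in treated against untreated cells. At 3 h probe set 1434746_at read 7.66 and 7.64 in untreated and 7.42 and 7.35 in treated arrays. These did not overlap, as in 51.2% of all genes. The difference of −0.27 missed the threshold (adjusted p = 0.0844). It passed after a further quantile normalization (0.0406), with only genes above the median level tested (0.0485), with the replicate block within each time (0.0497) and against the 4 arrays of 0 h (−0.44, 7.24e-04).

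Mlx was lower in treated cells at 3, 6 and 10 h. Probe set 1425930_a_at read 8.60 and 8.61 in untreated and 8.25 and 8.25 in treated arrays at 3 h, 8.65 and 8.64 against 8.29 and 8.17 at 6 h, and 8.58 and 8.39 against 8.11 and 8.17 at 10 h. All treated arrays of these times lay below all untreated ones. The differences were −0.36 ± 0.09 (SE, adjusted p = 0.0049), −0.42 ± 0.09 (0.00132) and −0.35 ± 0.09 (0.0111). The second probe set, 1418437_a_at, read 8.21 and 8.23 against 7.86 and 7.77 at 3 h and 8.14 and 8.12 against 7.76 and 7.67 at 6 h. It was lower by 0.40 (adjusted p = 7.47e-04) and 0.41 (6.27e-04), and by 0.25 at 10 h, which was not called (0.0519). The calls of both probe sets at 3 and 6 h held under every alternative except the 0 h baseline described below. The call at 10 h was lost without treated replicate 1 (−0.32, adjusted p = 0.108) and without untreated replicate 1 (−0.25, 0.204).

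The change of the Mlx effect from 1 to 3 h, −0.42 (adjusted p = 0.041), was lost under 14 of 18 alternatives. Single arrays that ended it were both treated arrays at 1 h (−0.41 and −0.43, adjusted p = 0.112 and 0.0876), untreated replicate 2 at 1 h (−0.28, 0.254), both treated arrays at 3 h (−0.42 each, 0.098 and 0.107) and both untreated arrays at 3 h (−0.42 and −0.41, 0.1 and 0.11). Against the 4 arrays of 0 h, treated Mlx was not called at any time by 1425930_a_at (0.07, −0.07, −0.09 and −0.18). By 1418437_a_at it was lower at 6 h (−0.28, adjusted p = 0.00289) and not called at 1, 3 or 10 h (−0.05, −0.18 and −0.12). Both probe sets gave values below the start at 3, 6 and 10 h, and a difference between the probe sets was not tested.

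**Figure D3:**
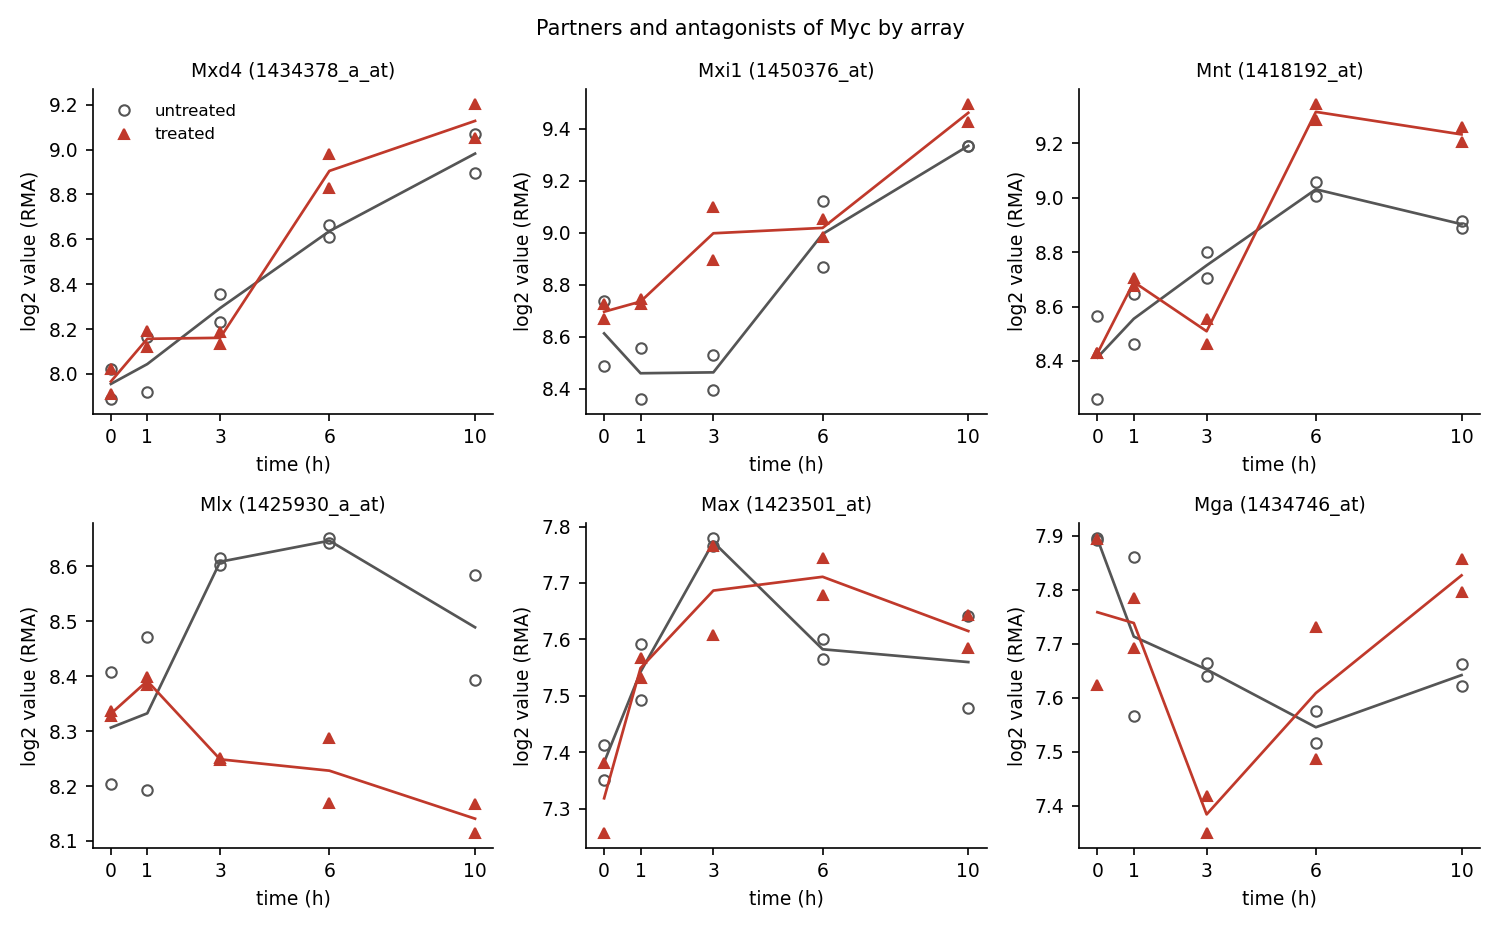
RMA log2 value of Mxd4, Mxi1, Mnt, Mlx, Max and Mga on each array against time in h, each panel with its own axis range; lines join the group means of 2 arrays, circles are untreated and triangles treated arrays. Mxd4 and Mxi1 climb in both arms to near 9.1 and 9.5 in treated arrays at 10 h, Mnt crosses from below to above the untreated level between 3 and 6 h, and treated Mlx lies at or below 8.29 from 3 h on.

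Some members also changed in untreated cells, which remained in medium without growth factors, as did many other genes. These comparisons share the untreated arrays of 0 h. At 1 h 0 members were called against 0 h, beside 0.187% of all genes, and 0 members had an unadjusted p under 0.05 (limma). At 3 h 4 members were higher, Max, Mxd4, Mnt and Mlx, beside 8.16% of genes in either direction, 4.95% higher and 3.21% lower. At 6 h Mxd4, Mxi1, Mnt and Mlx were higher and Mga was lower, 5 members beside 20.7% (10.4% and 10.3%). At 10 h Mxd4, Mxi1 and Mnt were higher, 3 members beside 26.1% (13.3% and 12.8%). The count of 3 of 10 at 10 h is near the share over all genes. The widest course was that of Mxd4, whose untreated arrays read 7.89 and 8.02 at 0 h, 8.23 and 8.36 at 3 h, 8.66 and 8.61 at 6 h and 9.07 and 8.89 at 10 h. Each of these listed pairs lay above the one before it, which is given as description only. The untreated pair at 1 h (8.04 ± 0.17, SD, n = 2) overlapped that of 0 h (7.96 ± 0.09) and was not called against it. Mxd4 was 2.04-fold above 0 h at 10 h (1.03 ± 0.09, SE, adjusted p = 2.07e-08), and its probe sets 1434379_at (1.07) and 1422574_at (0.81) were called as well. Its dimmest probe set, 1422575_at, was not called, with untreated means of 4.91 at 0 h and 5.09 at 10 h. Treated arrays read 8.02 and 7.91 at 0 h, 8.19 and 8.13 at 3 h, 8.83 and 8.98 at 6 h and 9.05 and 9.20 at 10 h. The change of the treated-minus-untreated difference from 3 to 6 h, 0.40, was not called (adjusted p = 0.0775).

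Untreated Mxi1 stayed at 8.56 and 8.36 at 1 h and 8.53 and 8.40 at 3 h, and reached 9.12 and 8.87 at 6 h and 9.33 on both arrays at 10 h. It was 0.72 above 0 h at 10 h (adjusted p = 3.64e-06) and 0.38 above it at 6 h (0.00431), the latter not without untreated replicate 2 at 0 h (0.26, 0.115) or replicate 1 at 6 h (0.25, 0.106). Untreated Mnt rose by 0.62 at 6 h (adjusted p = 9.27e-06) and 0.49 at 10 h (7.17e-05). Max read 7.41 and 7.35 at 0 h and 7.77 and 7.78 at 3 h, a rise of 0.39 (adjusted p = 0.00443). It was lost without untreated replicate 2 at 0 h (0.36, 0.0582). The rises at 3 h of Mxd4 (0.34, adjusted p = 0.0203), Mnt (0.34, 0.0105) and Mlx (0.30, 0.0329) also rested on single arrays. Without untreated replicate 2 at 3 h their adjusted p-values were 0.212, 0.13 and 0.164. Without replicate 1 at 0 h Mxd4 gave 0.27 (0.185), and without replicate 2 at 0 h Mnt gave 0.19 (0.255) and Mlx 0.20 (0.359), while Mlx gave 0.31 (0.123) without replicate 1 at 3 h. As the mean of its probe sets, untreated Mnt was higher by 0.17 at 3 h (0.343), and without the variance trend Mxd4 (0.07) and Mlx (0.0907) were not called. The rise of Mlx at 6 h, 0.34 (adjusted p = 0.00623), was lost without replicate 2 at 0 h (0.24, 0.132).

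Mga fell from 7.90 and 7.89 at 0 h to 7.57 and 7.52 at 6 h in untreated cells, by 0.35 (adjusted p = 0.0164). The call was lost without either array of 0 h (−0.35 each, 0.0755 and 0.0767) or replicate 2 at 6 h (−0.32, 0.103), and as the mean of the Mga probe sets (−0.08, 0.536). The Mxd3 probe set 1448878_at fell by 0.98 by 10 h (adjusted p = 0.00588), from 6.46 and 6.09 to 4.83 and 5.75. Without the array at 4.83 the fall was 0.52 (0.195), and without untreated replicate 1 at 0 h it was 0.80 (0.0867).

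Other genes that act with or upon the network were counted in 6 lists. Of 9 further network genes, 1 was lower at 1 h, 2 at 3 h, and 1 was higher and 1 lower at 6 and at 10 h. Over all genes 2.24%, 15.3%, 15.7% and 9.13% were called at 1, 3, 6 and 10 h, which is the background for this and the next 3 lists. The list's median differences were 0.00, 0.03, 0.04 and 0.00, against −0.01, −0.02, −0.03 and 0.00 over all genes. Txnip, a target of MLX with MLXIP that restrains glucose uptake, stood at 8.99 ± 0.14 in treated and 9.63 ± 0.08 (SD, n = 2) in untreated cells at 1 h, lower by 0.64 (adjusted p = 1.15e-06). It was lower by 0.52 at 3 h (adjusted p = 6.71e-06) and by 0.24 at 6 h (0.0179), the last lost without treated replicate 1 (0.131) or untreated replicate 1 or 2 (0.0655 and 0.0971). Mlxip, the MLX partner MONDOA, was lower by 0.45 at 3 h (adjusted p = 0.00108). Mycl, the third MYC family gene, was higher by 0.68 at 6 h (adjusted p = 0.00518) and by 0.64 at 10 h (0.0145). Its call at 6 h was lost without untreated replicate 2 (0.54, 0.0892) and that at 10 h without any 1 of the 4 arrays of that time (0.61 to 0.66, 0.0731 to 0.102). As the mean of their probe sets, neither Mycl (0.27 at 6 h, adjusted p = 0.117, and 0.24 at 10 h, 0.22) nor Txnip at 6 h (−0.04, 0.873) was called. Arrdc4, also a MONDOA target, was lower by 0.29 at 10 h (adjusted p = 0.0428), lost without any 1 of those 4 arrays (0.106 to 0.258).

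Of 14 measured chromatin cofactors, 0 were called at 1 and 10 h, 1 was higher and 1 lower at 3 h, and 2 were higher and 1 lower at 6 h. The 2 called at 3 h are near the share over all genes, 15.3%, and the list's medians ran from −0.02 to 0.02. At an unadjusted p under 0.05, 2 cofactors passed at 1 h and 3 at 10 h (limma). Ruvbl1, an ATPase that binds MYC, was lower by 0.20 at 3 h (adjusted p = 0.00238; 0.0547 without untreated replicate 2) and by 0.24 at 6 h (4.50e-04). Trrap, the scaffold of the acetyltransferase complexes, was higher by 0.25 at 3 h (adjusted p = 0.0481), which was lost without any 1 of the 4 arrays (0.0684 to 0.284). It was higher by 0.32 at 6 h (0.0106), lost without treated replicate 2 (0.0858) or untreated replicate 1 (0.183). Ep400 was higher by 0.27 at 6 h (adjusted p = 0.0100), lost without treated replicate 1 or 2 (0.0518 and 0.0603) or untreated replicate 1 (0.0789) and as the mean of its probe sets (0.12, 0.421).

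Of 13 measured genes that set the life time of the MYC protein, 1 was higher at 1 h, 3 were higher and 3 lower at 3 h, 3 were higher and 2 lower at 6 h, and 2 were higher at 10 h, beside the 2.24%, 15.3%, 15.7% and 9.13% of all genes. The medians were 0.05, 0.00, −0.04 and −0.05. Pim1, a kinase that stabilises MYC, stood at 8.51 ± 0.04 against 7.61 ± 0.003 (SD, n = 2) at 1 h, 1.87-fold higher (0.90 ± 0.08, SE, adjusted p = 4.36e-08), and was higher by 0.44 at 3 h (2.12e-04). Its rises of 0.31 at 6 h and 0.32 at 10 h (adjusted p = 0.00699 and 0.00865) were lost without treated replicate 2 (0.107) or untreated replicate 2 (0.122) at 6 h and without treated replicate 1 (0.0894) or untreated replicate 1 (0.12) at 10 h. Fbxw7, the ubiquitin ligase subunit that sends MYC to the proteasome, stood at 8.77 ± 0.05 against 8.18 ± 0.01 (SD, n = 2) at 3 h. It was higher by 0.58 ± 0.09 at 3 h (SE, adjusted p = 6.97e-05), 0.53 at 6 h (2.49e-04) and 0.46 at 10 h (0.00201). Usp36, a nucleolar enzyme that removes ubiquitin from MYC, was lower by 0.53 at 3 h (adjusted p = 4.30e-06) and by 0.31 at 6 h (0.00165). Apart from the 0 h baseline, these calls of Fbxw7 held under all alternatives, and that of Usp36 at 6 h was lost only with the mean of its probe sets (−0.18, 0.301).

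Of 12 factors known to act on the Myc promoter, 2 were higher at 1 h, 3 were higher and 2 lower at 3 h, 2 were higher and 1 lower at 6 h, and 3 were higher and 1 lower at 10 h, beside the same shares of all genes. The medians were 0.10, −0.01, −0.01 and 0.14. Klf10, a TGFβ-inducible zinc finger repressor, was 11.9-fold higher at 1 h (3.57 ± 0.07, SE, adjusted p = 3.73e-18), 2.87-fold at 3 h, 1.78-fold at 6 h and 1.29-fold at 10 h (1.59e-03). Cebpb was higher by 0.76 at 1 h, 0.56 at 3 h, 0.29 at 6 h and 0.20 at 10 h, the last lost without either treated array (0.0978 and 0.0771) or untreated replicate 2 (0.193). Smad2 was lower by 0.57 at 3 h (adjusted p = 1.28e-07) and higher by 0.22 at 10 h (0.0144), the latter lost without any 1 of the 4 arrays (0.0761 to 0.101). Prdm1 was lower by 0.65 at 6 h (adjusted p = 0.0207), lost without either treated array (0.104 and 0.0816) or untreated replicate 1 (0.337).

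Of 38 measured genes known as activated by MYC, 0 were called at 1 h, when Myc itself was lowest. Over all genes 2.24% were called then, 1.91% higher and 0.324% lower, so a count of 0 says little about the list. The median difference of the 38 was 0.01, against −0.01 over all genes. At an unadjusted p under 0.05, 4 of the 38 passed (limma). At 3 h 11 were lower and 2 higher, beside 8.55% of all genes lower and 6.73% higher, and the median was −0.11 against −0.02. At 6 h 13 were lower and 2 higher, beside 7.96% and 7.77%, and the median was −0.10 against −0.03. At 10 h 4 were lower and 2 higher, beside 4.06% and 5.07%, with a median of 0.04. The list's count of lower genes ran from 9 to 14 at 3 h and from 8 to 15 at 6 h over the alternatives. Hk2, the hexokinase of the glycolytic entry step, stood at 8.74 ± 0.03 in treated and 9.77 ± 0.001 (SD, n = 2) in untreated cells at 3 h, 2.04-fold lower (adjusted p = 1.62e-10). Untreated Hk2 had risen from 8.998 ± 0.087 at 0 h. Dkc1, which modifies ribosomal RNA, was lower by 0.50 (adjusted p = 1.93e-07) and Ppat, of purine synthesis, by 0.48 (5.71e-06) at 3 h.

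At 6 h the spermidine synthase gene Srm stood at 9.45 ± 0.14 against 10.06 ± 0.05 (SD, n = 2), lower by 0.61 (adjusted p = 1.14e-06). The amino acid transporter gene Slc7a5 was lower by 0.54 (2.58e-06) and Tfrc, the transferrin receptor, by 0.29 (6.86e-05; −0.20, 0.13 as the mean of its probe sets). At 10 h Slc7a5 remained lower by 0.36 (adjusted p = 7.63e-04) and Ldha, lactate dehydrogenase, by 0.17 (0.0045; 0.0899 without treated replicate 1 and 0.0586 without untreated replicate 1). Dkc1 was then higher by 0.25 (0.00252; 0.0546 without untreated replicate 1). In untreated cells 19 of the 38 were lower and 4 higher at 10 h than at 0 h, beside 12.8% and 13.3% of all genes.

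Of 10 genes known as repressed by MYC, 4 were higher at 1 h (1.91% of all genes higher), 4 were higher and 1 lower at 3 h, 3 higher and 1 lower at 6 h, and 3 higher and 2 lower at 10 h. Over all genes 6.73% were higher and 8.55% lower at 3 h, 7.77% and 7.96% at 6 h, and 5.07% and 4.06% at 10 h. The list's medians were 0.15, 0.10, 0.00 and 0.01, against −0.01, −0.02, −0.03 and 0.00 over all genes. The CDK inhibitor gene Cdkn2b stood at 10.26 ± 0.06 against 9.55 ± 0.15 (SD, n = 2) at 1 h, 1.63-fold higher (adjusted p = 3.67e-08), and was 2.07-fold higher at 3 h (2.61e-11) and 1.62-fold at 6 h (1.63e-08). Cdkn1b, another CDK inhibitor, was 1.49-fold higher at 1 h (3.99e-05), and the stress response gene Gadd45a was higher by 0.38 at 1 h (2.48e-04) and lower by 0.33 at 10 h (6.72e-04). Thbs1, a secreted matrix protein, was higher by 0.82, 0.95 and 0.54 at 3, 6 and 10 h (adjusted p = 5.03e-11, 5.68e-12 and 9.37e-08), and Hbp1, a repressor of the cell cycle, by 0.36 at 3 h and 0.30 at 6 h. Fth1, a ferritin subunit, was lower by 0.17 at 10 h (adjusted p = 0.00313), lost without treated replicate 2 (0.0688) or untreated replicate 1 (0.0686). Cdkn2b and Thbs1 are also well-known targets of SMAD proteins, and the list cannot tell these routes apart.

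**Figure D4:**
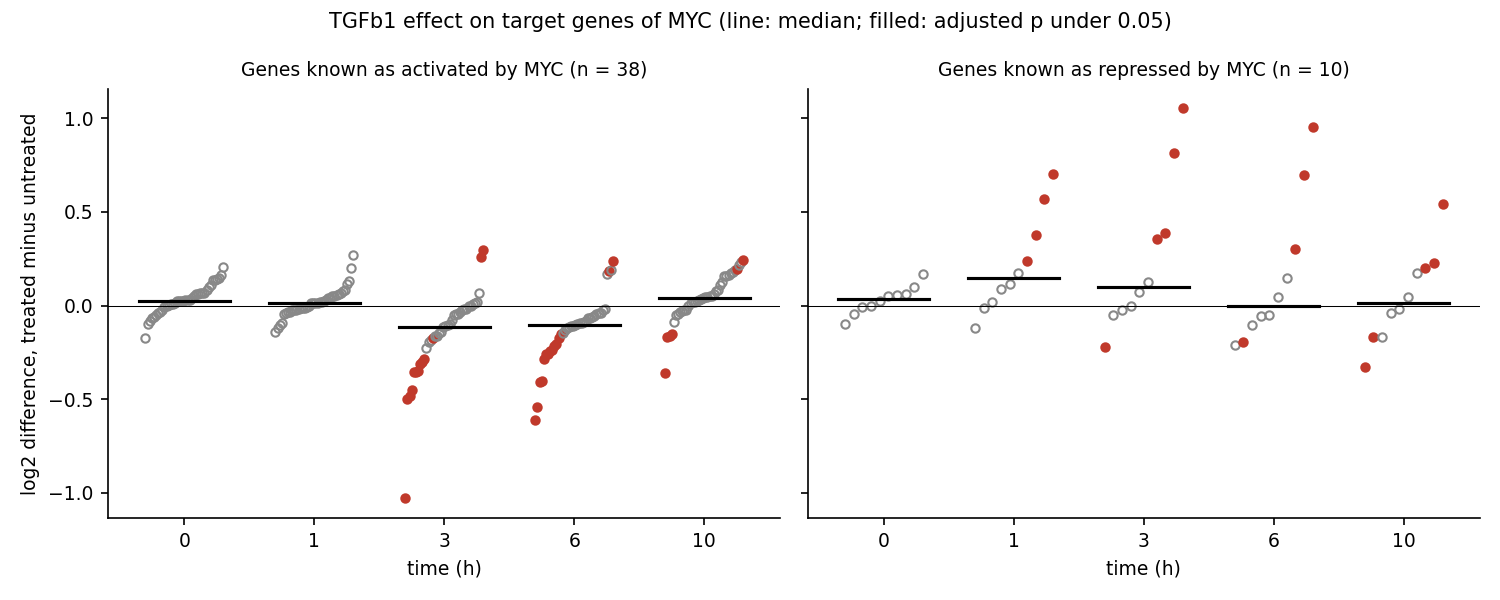
Treated-minus-untreated log2 difference of each measured gene known as activated (38) or repressed (10) by MYC against time in h, ordered by value within a time, with a line at the median and filled points for an adjusted p under 0.05. None of the 38 activated genes is filled at 1 h, when 2.24% of all genes were called. Below 0, 11 lie filled at 3 h and 13 at 6 h, with medians of −0.11 and −0.10, and 8.55% and 7.96% of all genes were called lower.

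Likeness of course was described by Pearson's r over the 10 group means, among the 898 or 899 other genes whose means spanned at least 1 log2 unit. The points share arrays and times, and no test was made. The gene most like Myc was Flrt3 (r = 0.92), which encodes a transmembrane adhesion protein, followed by Rassf9 (0.75), Hs3st1 (0.74), Serpinb5 (0.71) and Gdap10 (0.69). All 5 were lower in treated cells at 1 h. This follows largely from their choice, because the lowest point of the Myc course is treated cells at 1 h. Their later differences varied. At 1, 3, 6 and 10 h Flrt3 differed by −0.86, −0.26, 0.16 and 0.03. Serpinb5 differed by −0.25, 0.56, 0.76 and 0.93, and Gdap10 by −1.01, −0.57, −0.30 and −0.17. For Mxd4 the most alike genes were Cd1d1 and Glipr1 (both 0.98), and for Mxi1 Vldlr (0.94) and Kdm5b (0.92). For Mnt they were Tpmt and Slc4a11 (both 0.94), and for Mlx Slco1b2 (0.87) and Inmt (0.83). For Mycn probe set 1417155_at, added after its values were seen, they were Arhgap22 (0.99), Glis2 and Edn1 (both 0.98), Tnfrsf12a (0.98) and Pdgfb (0.96). Edn1, the endothelin precursor gene, differed by 2.03, 2.24, 1.38 and 0.59 at 1, 3, 6 and 10 h. Pdgfb, a growth factor gene, differed by 3.19, 2.98, 2.05 and 0.92.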

How the data were processed

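Expression was measured in Hepa1-6 cells on 20 Affymetrix arrays in 10 groups of 2. The authors deposited log2 values, 1 per probe set and array, made with RMA per the submitters' processing notes; for its version and chip description file, and for a genome build, the sources used here give nothing. RMA corrects the background, normalizes arrays to each other by quantiles and summarises probes on the log2 scale. It compresses differences of dim probe sets, and a shift shared by all transcripts would be removed. Depth does not apply, and no detection calls were used.

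The platform annotation named 1 gene for 34945 of 45037 probe sets, several for 932 and none for 9160, and the last kinds were left out. Of several probe sets of a gene, the one of highest mean stood for it (18194 genes), and 162 symbols not found in RefSeq kept the name of the annotation. Limma 3.58.1 in R 4.3.3 was fitted with 1 mean per group to all 20 arrays (10 residual degrees of freedom), with variances moderated along a trend on the mean level. P-values were adjusted by Benjamini-Hochberg within a comparison, with 0.05 as the threshold, and the fit was tested on simulated data. Treated cells were compared with untreated cells of the same time, the difference was compared between neighbouring times, and untreated cells with 0 h. Folds are powers of 2 of log2 differences.

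All 10 members are named. From each list, up to 3 members called at a time were named by lowest adjusted p; others were counted. The 5 genes most like Myc and the 2 most like each other called member were named, leaving out unnamed gene models. The members and lists were chosen with earlier results of these data known, so they give no independent support to patterns already seen. Trends, probe set choice, normalization, filters, weights, samples in the fit, baseline and single arrays were varied; these settings were applied to the lists after the data had been seen. Listed genes without a probe set of their own, such as Ncor1, Impdh2 and Mrto4, were not analysed here.

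Replicate numbers are given in the labels, without saying that a number marks a shared day or culture. Deviations from the group mean of same-numbered treated and untreated arrays correlated at −0.06 to 0.09, so the numbers were not taken as pairs.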

Additional observations from a re-analysis of the deposited data

Results flagged for a closer look

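These results stand out because the effect of TGFβ1 differed between neighbouring times, by limma's test of the change itself. Changes that share a time share its arrays. The Myc effect changed by 1.20 (adjusted p = 2.57e-09) from 1 to 3 h and by 0.45 (0.00157) from 3 to 6 h. The Mlx effect changed by −0.42 (adjusted p = 0.041) from 1 to 3 h. From 3 to 6 h the Mxi1 effect changed by −0.51 (adjusted p = 0.0248) and the Mnt effect by 0.53 (0.00824). The effect on Mycn probe set 1417155_at changed by −1.37 (adjusted p = 0.00406) from 3 to 6 h and by −1.10 (0.0275) from 6 to 10 h. Mxd4 probe set 1434379_at, whose treated arrays read 6.64 and 6.59 at 3 h and 7.20 and 7.47 at 6 h against 6.82 and 6.96 and 7.03 and 7.02 untreated, changed by 0.59 (adjusted p = 0.0354). That last call was lost under 10 of 15 alternatives, with adjusted p-values up to 0.187. Over the members 2 changes were called from 1 to 3 h and 3 from 3 to 6 h, beside 6.41% and 4.55% of all genes. From 6 to 10 h 0 of 10 members were called at the gene level by limma, beside 2.44% of all genes, and 0 had an unadjusted p under 0.05.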

How the results depend on the processing

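Groups of 2 limit precision, and with 1 array left out the lone array is assumed to vary like the other groups. The replicate block moved the count of members called at 1 h from 1 to 2, because Mxi1 (0.28) was then called (adjusted p = 0.028, and 0.0456 with the block within each time), and changed no other count. The block within each time also called Mga at 3 h (0.0497) and the Mnt change from 1 to 3 h (0.0399) and lost Mxd4 at 6 h (0.0512), for counts of 4, 3 and 3. Against the 4 arrays of 0 h, Mlx was lost at 3, 6 and 10 h (−0.07, −0.09 and −0.18). The members called from 1 to 3 h numbered 1 after quantile normalization, with the mean of all probe sets, with every probe set tested, without the variance trend, with array weights and with the compared arrays alone. With the mean of all probe sets, 2 members were called at 1 h and 5 in untreated cells at 10 h, and reversals were Mycn at 3 h (1.03) and 6 h (0.41) and Mxd1 at 3 h (−0.25). With every probe set tested the counts were 2 at 1 h, 5 from 3 to 6 h, 1 from 6 to 10 h and 5 in untreated cells at 10 h. Without the variance trend they were 2 at 6 h, 1 from 3 to 6 h and 2 in untreated cells at 3 h. Against the 4 arrays of 0 h they were 2 at 1 h and 6 at 10 h, and at 3 h Max (0.34) and Mnt (0.089), at 6 h Mxi1 1425732_a_at (0.39), Txnip (0.40) and Prdm1 (0.27), and at 10 h Gadd45a (0.32) turned sign. Without single arrays the members called ranged from 1 to 1 at 1 h, 2 to 2 at 3 h, 2 to 3 at 6 h and 1 to 3 at 10 h, from 1 to 2 and 2 to 3 for the changes from 1 to 3 and 3 to 6 h, and from 1 to 3, 2 to 5 and 3 to 3 in untreated cells at 3, 6 and 10 h. Of 53 list calls named, 35 held under every alternative other than the 0 h baseline. Without the variance trend, the calls of Txnip, Trrap and Prdm1 at 6 h, of Trrap at 3 h and of Arrdc4, Smad2, Cebpb, Ldha and Fth1 at 10 h were lost as well. Mxd1 was the only member below the median level of all genes, so that filter left it out.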
